A study of Mus musculus with 14 samples.

Results

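The progression of the knockout effect was measured as a genotype-by-time contrast: the log2 difference between knockout and control hearts at about 10 weeks after tamoxifen (the late effect) minus the same difference at about 5 weeks (the early effect). All 14 libraries of the series entered it. The early groups held 4 knockout and 4 control hearts, and the late groups held 3 and 3. Knockout hearts (cKO) were Fam210a fl/fl; αMHC MCM/+, with the tamoxifen-inducible Cre recombinase MerCreMer driven by the αMHC (Myh6) promoter of heart muscle cells, and controls were αMHC MCM/+ with no floxed allele. All mice were C57BL/6 males, and by their labels all received tamoxifen and both genotypes carried the Cre, which the transgene's transcript in the late cKO hearts went against (given with the depth of the libraries). Controls with the floxed allele and no Cre were not among the groups. The submitters chose the times by echocardiography, with normal heart function at the first and severely reduced function at the second. RNA came from whole hearts, in which only cardiomyocytes were to lose the gene, and no label states that each library came from its own animal, so the spread behind each p-value may be technical. Time and count table were the same split, so only differences within a table were compared. The genotype field of early cKO replicate 4 gave the control genotype while its title and description gave cKO, and it was kept as cKO.

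FAM210A is a protein of the inner mitochondrial membrane that takes part in the translation of mitochondrially encoded proteins. When mitochondrial protein synthesis or respiration fails, heart muscle cells switch on the integrated stress response: phosphorylation of eIF2α slows general translation and favours the transcription factor ATF4, which raises genes for amino acid synthesis, amino acid import and tRNA charging. Failing hearts also commonly shift from oxidative to glycolytic metabolism, re-express fetal contractile genes and lose ion channels and calcium-handling proteins. ATF4 binds C/EBP-ATF response elements, and 5 promoters that hold such letters are printed beside the genes they belong to.

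Fam210a itself was at 174, 180, 166 and 165 CPM (read counts scaled to library size with TMM factors) in the early controls and at 159, 135, 140 and 151 CPM in the early cKO hearts. In the late table it was at 131, 119 and 132 CPM in controls and at 64.9, 70.4 and 65.2 CPM in cKO hearts. Every cKO heart lay below every control of its time. The early means were 146.1 ± 10.75 against 171.2 ± 6.969 CPM (SD, n = 4 each; exact two-sided permutation p = 0.0286), and the late means were 66.83 ± 3.11 against 127.2 ± 7.469 CPM (SD, n = 3 each; exact p = 0.1, the smallest that 3 against 3 allows). The Fam210a contrast was −0.70 ± 0.11 (log2, SE; edgeR quasi-likelihood adjusted p = 3.9e-05), so the measured loss was deeper at the late time. Of its exonic length, 28.5% overlaps Ldlrad4 on the other strand, and the library kit does not mark strand.

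The libraries held 15657298 to 19466469 counts early and 29989076 to 35750964 counts late, and 14555 of 53735 gene symbols were tested. Of the 3 late cKO hearts, replicate 3 stood apart: its chi-square statistic averaged 107 and 101 per gene in comparison with replicates 1 and 2, which differed from each other by 21.5. Esr1, the estrogen receptor gene that supplies the receptor parts of MerCreMer, was at 3020 to 4030 CPM in early controls, 2010 to 2940 CPM in early cKO hearts, 3710 to 4920 CPM in late controls and 59.9, 8.85 and 14.7 CPM in the late cKO hearts, a contrast of −6.71 ± 0.64 (adjusted p = 3.0e-07). Myh6, whose promoter drives that transgene, was at 26200 to 28500 CPM in late controls and at 34700, 29400 and 30900 CPM in late cKO hearts. The Esr1 values go against the αMHC MCM/+ genotype labelled for the 3 late cKO hearts, while the lower Fam210a in them goes with the label. Late cKO throughout means the hearts so labelled, and every late effect and contrast rests on them. The part of the Esr1 difference in the late results was not tested.

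The knockout effect differed between the times for most of the measured transcriptome. The contrast was called (adjusted p under 0.05) for 8903 genes, 61.2% of those tested: 4342 had a higher late than early effect (29.8%) and 4561 a lower one (31.3%). At least 2-fold contrasts numbered 1862 higher (12.8%) and 2903 lower (19.9%). Early, 54 genes were called higher (0.371%) and 7 lower (0.0481%), while late 5202 were called higher (35.7%) and 5383 lower (37%). The cKO and control hearts did not overlap for 5.79% of genes early and for 70.3% late. The median standard error of an effect was 0.133 early and 0.148 late, so the larger late counts did not come with a smaller error. The median contrast over all genes tested was −0.0119.

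Genes were sorted by how their effect moved. Amplified genes were called at both times in 1 direction with a contrast of that direction, and they numbered 46 (0.316% of genes tested). Genes that appeared late were called late and in the contrast but not early: 4178 rose (28.7%) and 4359 fell (29.9%). For 7365 of these (86.3%) the 95% interval of the early effect stayed on the near side of the midpoint between 0 and the late log2 effect. A further 201 late calls had an uncalled early effect of the opposite sign with an unadjusted p under 0.05, of which 68 rose late (0.467%) and 133 fell late (0.914%). Held effects, called at both times in 1 direction with no call in the contrast, numbered 10 (0.0687%). An early call was lost or turned, with a called contrast against the early direction, in 4 attenuated genes (0.0275%) and 1 reversed gene (0.00687%). Among 872 genes with an early unadjusted p under 0.05 and no early call, 503 were called late in the same direction and 201 in the opposite one. Of all 14555 genes tested, 10585 were called late. With so many tests, chance alone gives some genes an unadjusted p under 0.05, and many of those would also be called late. How many of the 201 arose in this way was not tested.

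**Figure D1:**
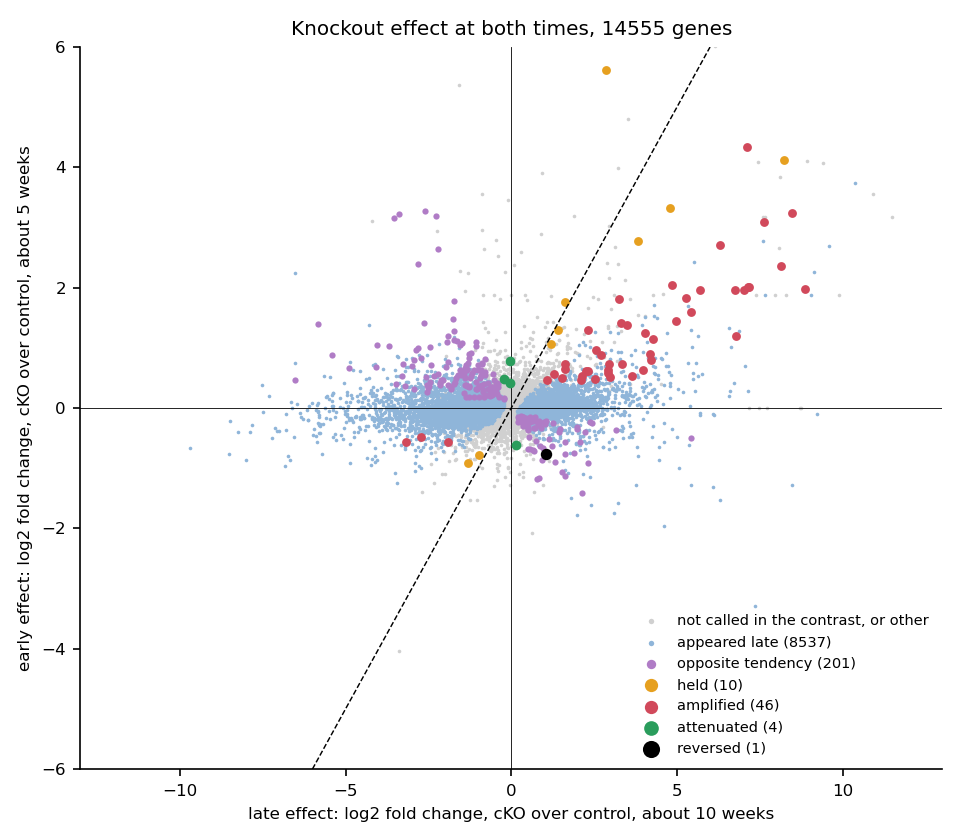
Each point is 1 of 14555 genes, with its late effect (log2 fold change, cKO over control) on the horizontal axis and its early effect on the vertical axis; colours give the class and the dashed line marks equal effects. Late effects spread far wider than early ones, the 46 amplified genes lie between the horizontal axis and the dashed line, and 6 genes lie beyond the vertical limits of ±6.

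Of the 54 genes already called higher early, 9 were cytosolic tRNA synthetases, 7 enzymes of serine, one-carbon, proline and asparagine synthesis and 4 amino acid transporters; all but Slc7a11 of these were amplified. All 61 early calls showed no overlap between cKO and control hearts early, beside 5.79% of all genes, and a call itself favours such genes. Of the 61, 46 were amplified, 43 upward and 3 downward. At the early time the 46 had reached between 14.5% and 60.9% of their late log2 effect, with a median of 29.1%. Because a call at both times defines the class, these are descriptions. Of the 43 rising genes, early cKO replicate 4 was the lowest of the 4 cKO hearts in 39. That it remained above every early control in all 43 follows from the lack of overlap. Late cKO replicate 3 was the highest of the 3 in 29.

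Promoters of 5 amino acid stress genes are printed to show the letters that the ATF4 element search found. Each is the 130 bases before the annotated start site, on the gene's own strand, from RefSeq on GRCm38.p6, and capitals mark matches to TGATGNAAN on either strand. They lie at chr6:7693210-7693339 for Asns (minus strand), chr6:55037871-55038000 for Gars (plus), chr11:120643749-120643878 for Pycr1 (minus), chr8:111033712-111033841 for Aars (plus) and chr3:50443614-50443743 for Slc7a11 (minus).
Asns: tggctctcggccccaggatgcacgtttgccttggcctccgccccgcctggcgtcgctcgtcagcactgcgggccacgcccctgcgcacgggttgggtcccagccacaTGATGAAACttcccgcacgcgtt
Gars: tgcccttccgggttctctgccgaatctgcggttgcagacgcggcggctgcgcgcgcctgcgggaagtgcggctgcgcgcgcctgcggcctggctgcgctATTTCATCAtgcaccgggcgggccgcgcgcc
Pycr1: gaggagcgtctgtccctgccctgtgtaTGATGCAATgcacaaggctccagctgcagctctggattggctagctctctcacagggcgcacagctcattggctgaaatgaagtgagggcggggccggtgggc
Aars: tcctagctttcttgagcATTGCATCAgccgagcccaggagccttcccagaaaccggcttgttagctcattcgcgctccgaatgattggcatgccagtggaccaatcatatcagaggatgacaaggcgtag
Slc7a11: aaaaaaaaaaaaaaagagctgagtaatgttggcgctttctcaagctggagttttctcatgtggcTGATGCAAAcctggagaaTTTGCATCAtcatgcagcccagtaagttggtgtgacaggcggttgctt
Counted from the start site, the matches lie at −23 to −15 in Asns, −31 to −23 in Gars, −103 to −95 in Pycr1, −113 to −105 in Aars, and both −66 to −58 and −48 to −40 in Slc7a11. In windows from 250 bases before to 50 after the start, searched on both strands, TGATGNAAN was in the promoters of 6 of the 34 amplified rising genes that had a promoter in the table (17.6%): Aars, Asns, Gars, Iars, Pycr1 and Trib3. It was in 278 of the 10018 genes tested that had one (2.78%), in 2.97% of the genes that appeared late upward and in 2.72% of those that appeared late downward. It was in 5 of 12 cytosolic tRNA synthetase genes (41.7%) and in 0 of 32 complex I genes. On the gene's own strand alone the shares were 5.88% of amplified rising genes, 8.33% of cytosolic tRNA synthetase genes and 1.33% of all. Aars, Gars and Iars count in both the amplified and the synthetase shares. A match describes letters and not binding.

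Serine, one-carbon, proline and asparagine synthesis rose furthest of the amplified functions. Of 18 genes in this list, 13 had a called contrast upward and 1 downward, 7 were amplified, and the median effect moved from 0.311 early to 2.9 late. Mthfd2, a mitochondrial folate enzyme that is nearly silent in adult heart, was at 2.71, 2.26, 1.35 and 3.08 CPM in early controls and at 44.7, 56.8, 60.9 and 29.3 CPM in early cKO hearts. Late, it was at 2.18, 2.33 and 2.46 CPM in controls and at 327, 291 and 359 CPM in cKO hearts. No cKO heart overlapped a control at either time, and the Mthfd2 contrast was 2.79 ± 0.36 (adjusted p = 7.0e-06). Asns, asparagine synthetase, went from 1.55 to 2.65 CPM in early controls to 16.4, 23.1, 21.9 and 11 CPM in early cKO hearts, and from 1.98 to 2.86 CPM in late controls to 472, 416 and 564 CPM in late cKO hearts. Its contrast was 4.55 ± 0.36 (adjusted p = 4.4e-08). Mthfd2 had the larger early effect (4.34 against 3.08) and Asns the larger late one (7.63 against 7.13).

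Phgdh, the first enzyme of serine synthesis, was at 0.602 to 1.16 CPM in early controls, 3.25, 3.85, 3.9 and 2.25 CPM in early cKO hearts, 0.977 to 1.09 CPM in late controls and 143, 124 and 177 CPM in late cKO hearts. Psat1, which acts next in the pathway, had nearly the same pair of effects, 2.01 early and 7.17 late, against 2.01 and 7.15 for Phgdh. Psph, the last enzyme of serine synthesis, was not called early (0.29, SE 0.21) and had a contrast of 2.88 ± 0.29. In proline synthesis, Pycr1 went from an effect of 2.05 to 4.86 and Aldh18a1 from 1.38 to 3.49. In mitochondrial folate metabolism, Aldh1l2 was amplified (1.25 to 4.05), while Shmt2 (0.20 to 2.63) and Mthfd1l (0.41 to 4.20) were called late and not early. Aldh1l1, the cytosolic relative of Aldh1l2, fell late by 1.23.

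The 20 cytosolic aminoacyl-tRNA synthetases, which load tRNAs with amino acids, rose as a group. A contrast upward was called for 19 and downward for 0, 9 were amplified and 10 appeared late, and the median effect went from 0.351 to 2.07. Gars, for glycine, was at 69.7, 67.5, 67.9 and 68.9 CPM in early controls and 100, 117, 120 and 84.2 CPM in early cKO hearts. Late, it was at 78.2, 74.4 and 72.4 CPM in controls and 1110, 1020 and 1370 CPM in cKO hearts, a contrast of 3.34 ± 0.17 (adjusted p = 5.0e-10). The other amplified members were Nars (0.51 early, 2.98 late), Sars (0.72, 3.35), Cars (0.73, 2.96), Eprs (0.59, 2.91), Aars (0.62, 2.25), Iars (0.53, 2.12), Lars (0.46, 2.11) and Mars (0.73, 1.62). Wars, for tryptophan, had an early effect near 0 (0.001, SE 0.07) and a late effect of 2.40. Qars was the member without a called contrast (0.19 ± 0.10, adjusted p = 0.091), and Kars (0.39) and Dars (0.62) had small ones. Of the 17 mitochondrial synthetases, 4 contrasts were called upward (23.5%) and 5 downward (29.4%), near the 29.8% and 31.3% of all genes. Among them were Cars2 at −1.59 and Hars2 at −0.99.

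The factors of the integrated stress response split by timing. Of 23, a contrast upward was called for 14 and downward for 3, with a median effect of 0.161 early and 1.61 late. Atf4 was at 60.3 to 67.6 CPM in early controls, 95, 107, 104 and 80.5 CPM in early cKO hearts, 71.1 to 84.1 CPM in late controls and 634, 462 and 688 CPM in late cKO hearts. The related factor Atf5 had the larger early effect (1.81, against 0.63 for Atf4) and the smaller contrast (1.44 ± 0.21, against 2.29 ± 0.18). Trib3, a pseudokinase induced by ATF4, went from 1.83 to 5.27. Ddit3, which encodes the cell-death factor CHOP, was not called early, at 13.1, 11.4, 14.6 and 14.1 CPM in cKO hearts against 14.5 to 19.3 CPM in controls. It was at 101, 68.5 and 125 CPM in late cKO hearts against 19.1 to 27.6 CPM in late controls, a contrast of 2.37 ± 0.25. Ppp1r15a, a subunit of the phosphatase that reverses eIF2α phosphorylation, and Eif4ebp1, a translation repressor, also appeared late, with contrasts of 2.73 and 2.25. Oma1, the inner-membrane protease that relays mitochondrial stress to the cytosol, fell late by 1.54 with an early effect of −0.01. Cebpg had a called contrast downward of −0.49 ± 0.13, from 0.36 early to −0.13 late, neither of them called.

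Amino acid transporters and secreted stress signals held both amplified and other genes. Of 23 transporters, 10 contrasts were called upward and 5 downward, 3 were amplified, and the median contrast was 0.423. Slc7a5 and Slc3a2, the 2 chains of a large neutral amino acid exchanger, went from 1.96 to 5.70 and from 0.62 to 2.32, and the glycine transporter Slc6a9 from 1.14 to 4.28. Gdf15, a circulating signal of mitochondrial stress, was at 0.642 to 1.07 CPM in early controls, 4.14, 5.52, 10.8 and 2.37 CPM in early cKO hearts, 0.415 to 0.745 CPM in late controls and 42, 35.3 and 68.7 CPM in late cKO hearts. Fgf21, another such signal, was counted in few reads: its groups held 0, 24, 1 and 107 reads in all (early control, early cKO, late control, late cKO). With controls at 0 and 1 read, a change of its effect between the times could not be measured.

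The remaining amplified genes spanned other functions. Acox2, a peroxisomal oxidase, had the largest contrast of the 46 at 6.88 ± 0.52, from 1.3 to 2.35 CPM in early cKO hearts to 83.5, 109 and 117 CPM in late ones. Maoa, the monoamine oxidase of the outer mitochondrial membrane, went from 8.08, 8.45, 14.4 and 7.89 CPM in early cKO hearts (controls 3.61 to 4.81) to 624, 373 and 574 CPM in late ones (controls 3.55 to 5.51). Lgals3, galectin-3, went from an effect of 1.96 to 7.02, and Rtn4, a shaper of the endoplasmic reticulum, from 0.53 to 3.65. Lonp1, the matrix protease, went from 0.48 to 2.53, the growth factor gene Myc from 1.42 to 3.32, and Hmox1, heme oxygenase, from 0.88 to 2.71. The 3 amplified falling genes were Sox7 (−0.56 to −3.17), a transcription factor of endothelial cells, Thbd (−0.47 to −2.72), the endothelial anticoagulant thrombomodulin, and Cep128 (−0.56 to −1.91), a centriole protein. Sox7 was at 28.5 to 36.4 CPM in early controls, 21.1, 19, 24.1 and 24.1 CPM in early cKO hearts, 41.7 to 45.5 CPM in late controls and 5.13, 4.81 and 4.49 CPM in late cKO hearts.

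The early calls of these genes were less firm than their contrasts. For 22 of the 46 amplified genes the early call was lost when some single heart was left out. Over all 61 early calls the adjusted p then ran from 0.0502 to 0.224. Of the 46, 10 of the 46 kept the early call under all 25 settings tried: Tfcp2l1, Phgdh, Extl1, Asns, Atf5, Slc7a5, Aldh1l2, Pycr1, Psat1 and Aldh18a1. The contrast itself was called in the same direction for 46 of 46 when any 1 heart was left out.

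**Figure D2:**
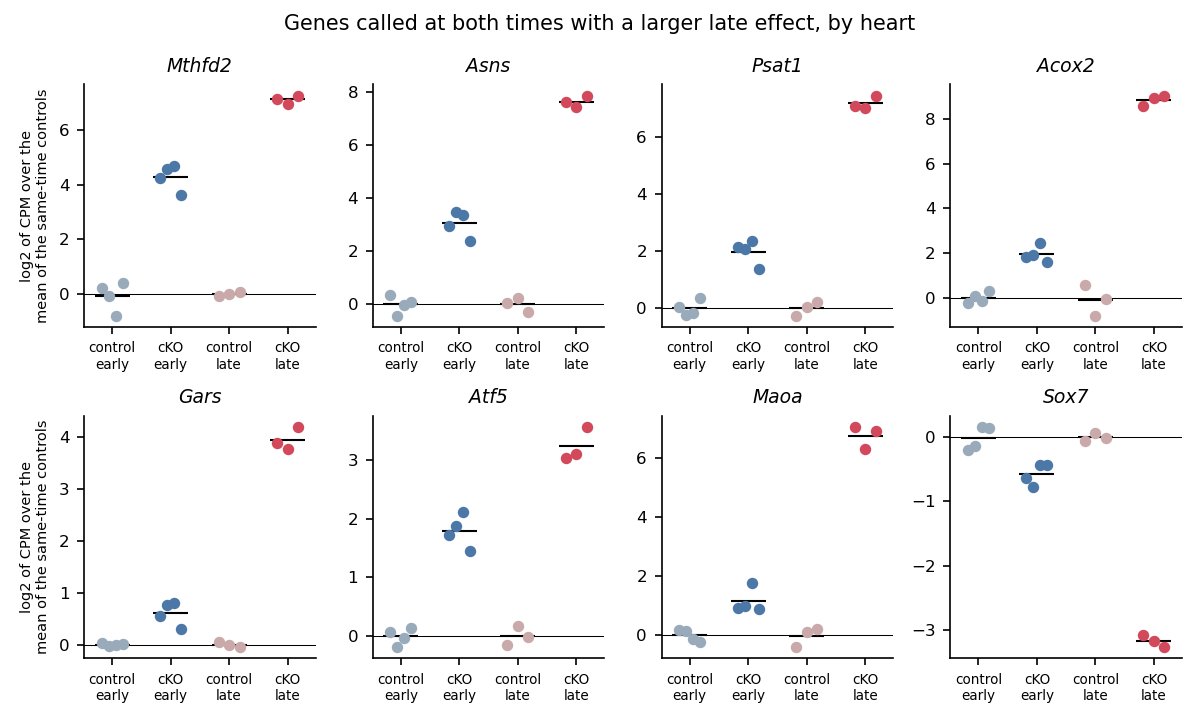
The log2 ratio of CPM to the mean of the same-time controls is plotted for each heart, by group on the horizontal axis, for 8 amplified genes; black bars are group means. Early cKO hearts lie apart from zero and late cKO hearts lie further in the same direction, upward in 7 genes and downward in Sox7, where late cKO hearts sit at 4.49 to 5.13 CPM.

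Other functions rose with few or no early calls: 0 for proteasome, autophagy and lysosome genes, 1 for mitochondrial chaperones and proteases (Lonp1) and 2 for NRF2 antioxidant genes (Hmox1 and Slc7a11). All 29 proteasome contrasts called, of 31 subunits tested, were upward, and the median effect went from 0.00611 to 0.861. Psmd8, a lid subunit, was at 80, 86.7, 91.5 and 77.6 CPM in early cKO hearts against 78.7 to 88.7 CPM in controls, and at 473, 444 and 638 CPM in late cKO hearts against 83.7 to 113 CPM in late controls. The early groups overlapped and the late groups did not, and the Psmd8 contrast was 2.35 ± 0.18 (adjusted p = 2.3e-08). Of 30 autophagy and lysosome genes, 17 contrasts were called upward and 3 downward, led by Atp6v1h of the lysosomal proton pump (3.30 ± 0.11), the protease Ctsl (2.56) and the autophagy receptor Sqstm1 (1.66). Of 23 mitochondrial chaperones and proteases, 13 were called upward and 2 downward, with Grpel2 at 1.72, Hspa9 at 1.30 and Afg3l2 at 1.22. The NRF2 antioxidant list had 15 upward and 2 downward of 27, with the glutathione synthesis genes Gss at 2.98, Gclm at 1.64 and Gclc at 1.51.

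Protein synthesis genes also gained calls late, from early effects that were mostly above 0 and uncalled. Early effects were above 0 in 26 of 32 translation factors, 21 of 25 ribosome biogenesis genes and 72 of 77 cytosolic ribosomal proteins. Over all genes tested, 7150 of 14555 were. Members of a list were measured in the same hearts and can move together, so these counts of signs are descriptions. Of 32 translation factors, 24 contrasts were called upward and 3 downward, with a median effect of 0.0828 early and 0.823 late. Eif3c, an initiation factor subunit, had a contrast of 2.12 ± 0.10. With the early hearts fitted alone in edgeR, its early effect of 0.32 was called (adjusted p = 0.026). Of 25 ribosome biogenesis genes, 17 were upward and 1 downward, with the nucleolar protein Ncl at 1.85. The 77 cytosolic ribosomal proteins had 14 contrasts called upward (18.2%) and 1 downward (1.3%). Both shares lay below the 29.8% and 31.3% of all genes. Their median contrast of 0.238 turned negative without late cKO replicate 3 (−0.113), so no direction is given for them.

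Structural and stress genes of the cardiomyocyte rose at the same time. Of 19 fetal and stress genes, 13 contrasts were called upward and 0 downward, with the median effect going from 0.669 to 2.66. Acta1, skeletal actin, was at 207 to 316 CPM in early controls, 231, 476, 717 and 281 CPM in early cKO hearts, 160 to 349 CPM in late controls and 4960, 3990 and 5690 CPM in late cKO hearts, a contrast of 3.66 ± 0.47. Nppb, the B-type natriuretic peptide, had a contrast of 2.24 ± 0.34 and Myh7, the slow myosin, 2.04 ± 0.59. Nppa, the atrial natriuretic peptide, was called late (3.09) but not in the contrast (1.99 ± 1.06, adjusted p = 0.11); early cKO replicate 2 alone reached 870 CPM against 55.8 to 215 CPM in the other 3, and without that heart the Nppa contrast was called (3.18 ± 0.88, adjusted p = 0.0063). Uchl1, a ubiquitin hydrolase, had the largest called contrast of the list, at 5.01 ± 0.28. Of 30 sarcomere and Z-disc genes, 18 were called upward and 6 downward, with the intermediate filament Des at 2.37 and Flnc at 2.51. The cell-cycle inhibitor Cdkn1a (3.75) and the death gene Bid (3.14) were among 12 upward and 3 downward contrasts of 22 p53 and apoptosis genes.

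Matrix genes and their regulators moved in both directions. Of 32 matrix genes and matrix enzymes other than collagens, 7 contrasts were called upward (21.9%, beside 29.8% of all genes) and 4 downward. Single members of these lists rose strongly. The TGF-beta ligand Tgfb2 had a contrast of 3.15 ± 0.15, the collagen cross-linker Lox 4.30 ± 0.31, Ctgf 3.28 and Postn 2.21 (SE 0.40). Of 17 collagen genes, 5 contrasts were called upward (29.4%) and 7 downward (41.2%, beside 31.3% of all genes), with Col15a1 at −3.52. Of 30 TGF-beta and BMP genes, 6 were upward (20%) and 12 downward (40%).

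**Figure D3:**
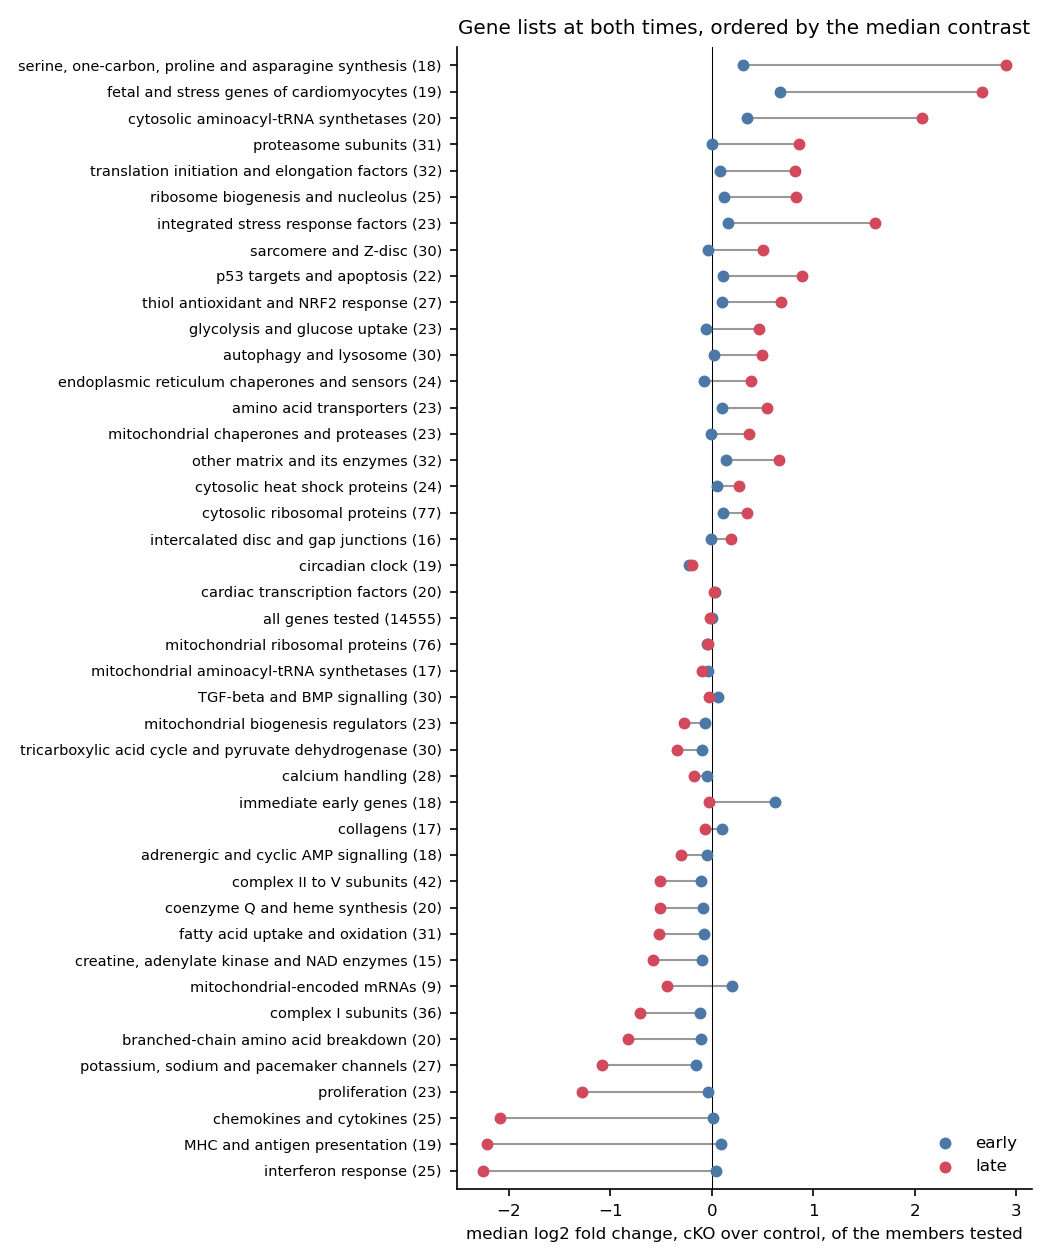
For each gene list (number of members tested in brackets) the median early effect and the median late effect (log2 fold change, cKO over control) are joined by a line, in order of the median contrast. Serine and related synthesis goes from 0.311 to 2.9 at the top and the interferon response from 0.0401 to −2.26 at the bottom, beside −0.00238 and −0.0195 for all genes tested.

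Mitochondrial energy genes fell late as groups, from early effects that were mostly below 0 and uncalled. Early effects were above 0 in 0 of 36 complex I and 3 of 42 complex II to V genes. They were above 0 in 1 of 20 branched-chain breakdown, 3 of 31 fatty acid and 2 of 30 tricarboxylic acid cycle genes. Over all genes tested, 7150 of 14555 were above 0, and of 10 ventricular cardiomyocyte markers 1 was. Genes measured in the same hearts can move together, so these counts of signs are descriptions. A shared source of the early signs was not tested. Among 36 nuclear-encoded complex I subunits, 0 contrasts were called upward and 21 downward, and the median effect went from −0.112 to −0.71. Ndufs1, the largest subunit, was at 723 to 792 CPM in early cKO hearts against 752 to 824 CPM in controls and at 358, 341 and 320 CPM in late cKO hearts against 685 to 794 CPM in late controls. For complexes II to V, 2 of 42 were upward and 21 downward. Branched-chain amino acid breakdown had 1 upward and 14 downward of 20, led by the phosphatase Ppm1k (−2.80), fatty acid uptake and oxidation 5 and 14 of 31, with Cpt2 at −1.69 and Slc27a1 at −1.95, and the tricarboxylic acid cycle 4 and 14 of 30, with the pyruvate dehydrogenase phosphatase Pdp2 at −2.93. Ckmt2, the mitochondrial creatine kinase, was at 1740, 1670, 1660 and 1540 CPM in early cKO hearts (controls 1680 to 1830) and at 180, 181 and 170 CPM in late ones (controls 1890 to 2330). Its contrast was −3.46 ± 0.12 (adjusted p = 2.1e-11).

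The share of mitochondrially encoded counts was lower in cKO than in control hearts at the late time. This share of all counts was 27.49% ± 1.561 in early cKO hearts and 25.27% ± 0.6189 in early controls (SD, n = 4; exact two-sided permutation p = 0.0571), and 13.85% ± 2.446 in late cKO hearts and 20.86% ± 1.535 in late controls (SD, n = 3; exact p = 0.1, the smallest possible). The difference went from 2.221 to −7.014 percentage points. Early groups overlapped, with cKO hearts at 25.57% to 29.37% and controls at 24.52% to 25.97%. Late groups did not overlap, with cKO hearts at 11.18% to 15.98% and controls at 19.74% to 22.61%. Among the 9 encoded mRNAs tested, 0 were called early, 2 were called higher and 4 lower late, and 0 contrasts were called upward and 4 downward. The mt-Cytb transcript was at 65700, 60200, 56000 and 60300 CPM in early cKO hearts, above all 4 controls (50900 to 52700), and at 35300, 36200 and 32700 CPM in late cKO hearts, below all 3 controls (45300 to 48700), a contrast of −0.67 ± 0.13 (adjusted p = 0.00045) with no early call. For mt-Co1 the contrast was −1.76 ± 0.20, with an early effect of −0.04.

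Channel genes fell late, and calcium-handling genes moved in both directions. Of 27 channel genes, 2 contrasts were called upward (7.41%) and 15 downward (55.6%, beside 31.3% of all genes), with the median effect going from −0.159 to −1.08. Kcnv2, a modifier of potassium channels, was at 7.7, 8.4, 6.35 and 8.18 CPM in early cKO hearts, each below the early controls (8.9 to 11.4), and at 0.18, 0.255 and 0.138 CPM in late cKO hearts against 11.2 to 13.8 CPM in late controls. Its contrast was −5.52 ± 0.25 (adjusted p = 1.6e-10). Scn4b, a sodium channel subunit, had −4.90 ± 0.32, Kcnd2 −4.02 and its partner Kcnip2 −2.78. Gja1, the main ventricular gap junction protein, went from 0.14 early to −1.81 late, in a list of 16 intercalated disc and gap junction genes with 8 contrasts upward and 5 downward. Of 28 calcium-handling genes, 8 were upward (28.6%) and 11 downward (39.3%), near the shares of all genes. Members that fell included the sarcoplasmic calcium-binding protein Hrc at −4.03 ± 0.15, the pump inhibitor Pln at −1.53 and the pump Atp2a2 at −1.05. Adra1a, an adrenergic receptor, had −3.46.

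Glycolysis genes and several gene families moved in both directions, with one relative rising as the other fell. Of 23 glycolysis and glucose uptake genes, 12 contrasts were called upward and 9 downward. Eno1, the widely expressed enolase, was at 60.3 to 67.3 CPM in early cKO hearts against 62.7 to 66.3 CPM in controls and at 493, 543 and 757 CPM in late cKO hearts against 91.6 to 105 CPM in late controls. Eno3, the muscle enolase, was at 1010 to 1080 CPM in early cKO hearts against 1150 to 1430 CPM in controls and at 89.2, 121 and 133 CPM in late cKO hearts against 1300 to 1620 CPM in late controls. The Eno1 contrast was 2.65 ± 0.17 and the Eno3 contrast −3.38 ± 0.18 (adjusted p = 3.5e-09 and 6.4e-10). Hk1 (2.49) and the glucose transporter Slc2a1 (1.45) rose as the insulin-responsive transporter Slc2a4 fell (−0.75).

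The same arrangement was seen in 5 further pairs, chosen after their values were seen. Rpl3 and its muscle-specific relative Rpl3l had contrasts of 1.32 ± 0.20 and −4.87 ± 0.20, and elongation factors Eef1a1 and Eef1a2, the latter the form of adult muscle and neurons, 1.76 ± 0.15 and −0.99 ± 0.13. Initiation factors Eif4a1 and Eif4a2 had 1.86 and −1.50, the kinases Camk2d and Camk2a 1.10 and −3.76, and the respiratory subunits Cox8a and Cox8b 1.20 and −2.00. Cox7a1, the heart and muscle form of another complex IV subunit, had −4.26 ± 0.28. None of these genes was called early in the joint fit. With the early hearts fitted alone in edgeR, Rpl3 was called (0.31, adjusted p = 0.031). Reads shared between such relatives could not be separated here, since how the counting treated them is not given in the sources used here.

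**Figure D4:**
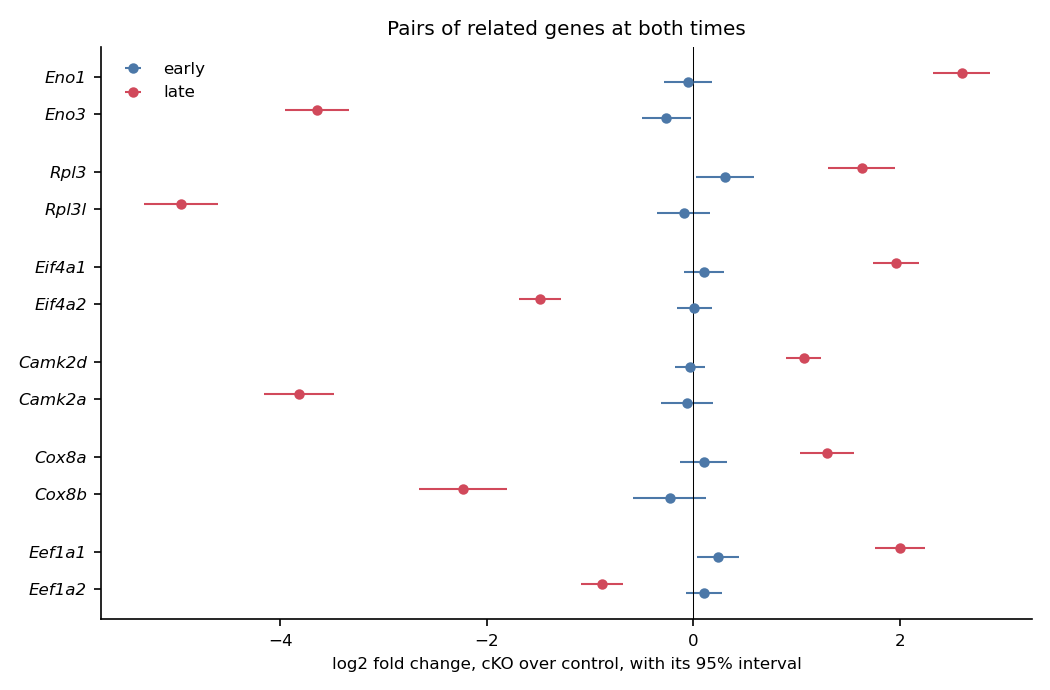
Early and late effects (log2 fold change, cKO over control) with 95% intervals for 6 pairs of related genes, the pairs having been chosen after their values were seen. Early points lie near 0 in every pair, and late points part to either side, furthest for Rpl3 and Rpl3l (contrasts 1.32 and −4.87).

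Immune and stromal transcripts fell late. All 24 called contrasts of the 25 interferon response genes were downward, and 18 of 19 genes of MHC and antigen presentation were downward with 0 upward. H2-Aa, an MHC class II chain, was at 44.1, 55.3, 42.5 and 51.8 CPM in early cKO hearts against 42.7 to 49.5 CPM in controls and at 2.76, 3.85 and 5.43 CPM in late cKO hearts against 44.2 to 65.3 CPM in late controls, a contrast of −3.96 ± 0.26. Its partner Cd74 had −3.85 and the guanylate-binding protein Gbp2 −3.29. Chemokines and cytokines had 2 contrasts upward and 16 downward of 25, with Cxcl9 at −4.19. Proliferation genes had 3 upward and 13 downward of 23, with Top2a at −3.97 and the kinetochore gene Cenpf at −5.95.

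Markers of several cell types moved with these groups, and their part in the results was not tested. In bulk tissue, fewer cells of a type and less RNA per cell cannot be told apart. Endothelial markers (12 of 14 contrasts downward, 0 upward) summed to 1960 to 2190 CPM in early controls, 2030 to 2060 CPM in early cKO hearts, 2390 to 2630 CPM in late controls and 1300 to 1350 CPM in late cKO hearts. Fibroblast markers (8 of 12 downward, 1 upward) summed to 3600 to 4450 CPM in late controls and 2100 to 2430 CPM in late cKO hearts. Macrophage markers (13 of 17 downward, 1 upward) summed to 520 to 525 CPM in late controls and 734 to 1010 CPM in late cKO hearts, of which Lgals3 alone gave 460, 473 and 666 CPM. Lymphocyte markers were under 4.1 CPM in sum in every group, with 2 of 10 passing the count filter and Nkg7 at 0 in late cKO hearts. Smooth muscle and pericyte markers had 2 contrasts upward and 8 downward. Their sum was nevertheless higher late, at 1810 to 2510 CPM in cKO hearts against 1600 to 1680 CPM in controls. Mesothelial and Schwann markers had 0 contrasts upward and 4 downward of 7. Erythrocyte markers had 6 upward of 6, from 42.2 to 74.3 CPM in late controls to 197 to 379 CPM in late cKO hearts. Ventricular markers summed to 73300 to 80600 CPM in early controls and 65600 to 71100 CPM in early cKO hearts, without overlap. Late, they summed to 74000 to 84700 CPM in controls and 65400 to 77400 CPM in cKO hearts, which overlapped. None of these markers was at 0 in every library of a group. Atrial markers summed to 179 to 1060 CPM in late controls and 1780 to 3010 CPM in late cKO hearts, of which Nppa alone gave 2610, 1730 and 2400 CPM, with 0 contrasts upward and 2 downward of 9.

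Clock genes moved in both directions. Of 19, a contrast was called upward for 6 (31.6%) and downward for 8 (42.1%), beside 29.8% and 31.3% of all genes. Dbp, an output of the clock, was at 124 to 220 CPM in early controls, 125, 57.4, 80.7 and 177 CPM in early cKO hearts, 176 to 215 CPM in late controls and 11.4, 8.23 and 10.5 CPM in late cKO hearts (contrast −3.75 ± 0.42). Arntl, a core activator that normally peaks when Dbp is low, had a contrast of 1.73 ± 0.70 (adjusted p = 0.043), and its early controls ranged from 1.54 to 6.74 CPM; the Arntl call was lost in 12 of 24 alternative settings (adjusted p up to 0.127). The hour of tissue collection is not given in the sources used here.

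Against this background, 1 gene was called in opposite directions at the 2 times. Eya2, a transcriptional coactivator and phosphatase, was at 3.01, 3.94, 3.21 and 3.61 CPM in early controls and 2.35, 1.73, 1.85 and 2.19 CPM in early cKO hearts. Late, it was at 2.83, 3.6 and 2.66 CPM in controls and 6.45, 6 and 6.36 CPM in cKO hearts. All early cKO hearts lay below, and all late cKO hearts above, the controls of their time, and the contrast was 1.81 ± 0.22 (adjusted p = 3.8e-06). Its early effect of −0.76 ± 0.16 was near the threshold (adjusted p = 0.047) and lost its call when any of 12 of the 14 hearts was left out (adjusted p 0.0552 to 0.224).

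In 4 genes the early difference was no longer called late, and the contrast ran against it. Among them, Rin3, a regulator of endocytic Rab proteins, was at 14.9, 14.7, 21 and 17.4 CPM in early cKO hearts against 23.7 to 28.5 CPM in controls, and at 24.5, 23.1 and 25.6 CPM in late cKO hearts against 21.3 to 23.9 CPM in late controls; the effect went from −0.62 to 0.13 and the contrast was 0.75 ± 0.16 (adjusted p = 0.00094). Zfp608, a zinc-finger protein, went from 0.78 (19.9, 19, 15.5 and 18.3 CPM in early cKO hearts, 8.93 to 12.6 CPM in controls) to −0.04 (contrast −0.82 ± 0.23). Nfkb2, a subunit of NF-κB, went from 0.42 to −0.03 (contrast −0.45 ± 0.13). The early call was lost without single hearts for 4 of 14 hearts in Rin3, 7 in Zfp608 and 9 in Nfkb2. With early cKO replicate 4 counted as a control the Zfp608 contrast was no longer called (adjusted p = 0.0882).

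In 10 genes the effect was called at both times and the contrast was not. Mcf2l was at 83 to 88.9 CPM in early controls, 44, 36.1, 59.7 and 59.2 CPM in early cKO hearts, 66.4 to 71.2 CPM in late controls and 31.7, 38.3 and 33.3 CPM in late cKO hearts. Its effect of −0.79 early and −0.98 late gave a contrast of −0.20 with a 95% interval of −0.61 to 0.21. Banp, a nuclear matrix protein, went from −0.91 to −1.31, with an interval of the contrast from −0.76 to −0.04 and an adjusted p of 0.054. Fosl2, an AP-1 subunit (1.29 and 1.40; interval −0.65 to 0.87), Inhba, an activin subunit (1.76 and 1.62; interval −1.20 to 0.92), and Tox3 (1.06 and 1.20; interval −0.46 to 0.75) had early and late effects of like size, within wide intervals. Gsta1, a glutathione transferase, had 2.78 and 3.84. Slc7a11, Vmn2r3, Soat2 and Pappa2 were counted in few reads in some groups: over the group, early controls, early cKO, late controls and late cKO held 2, 44, 2 and 764 reads of the cystine transporter Slc7a11, 1, 159, 1 and 7337 of Vmn2r3, 3, 36, 19 and 542 of Soat2, and 0, 18, 14 and 106 of Pappa2. For these 4 genes the missing call in the contrast came with standard errors of 1.14 to 4.08. The contrast gained a call in 8 of 24 alternative settings for Slc7a11, 3 for Vmn2r3 and 2 for Soat2, so that their place among the held genes depended on the processing.

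Opposite tendencies were led by genes with a small early and a large late effect. Itgb6, an integrin subunit, was at 27.9, 25.1, 22.9 and 18.2 CPM in early cKO hearts against 13.4 to 21.4 CPM in controls, overlapping, and at 0.15, 0.141 and 0.138 CPM in late cKO hearts against 13 to 14.2 CPM in late controls (contrast −6.99 ± 0.30). Rasef, a Rab-like protein, went the other way, from −0.50 to 5.42, and Ammecr1 from −0.36 to 3.15. Bcl2l1, an inhibitor of apoptosis, went from −0.35 to 1.99. Adgre1, the macrophage marker F4/80, went from 0.36 to −2.49. None of these early effects was called, and the part of chance in them was not tested.

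Immediate early genes had a positive median early effect of 0.627 and a late one of −0.0274; of 18, 3 contrasts were called upward and 7 downward. Fosb was at 2.29, 4.03, 0.8 and 0.889 CPM in early cKO hearts against 0.257 to 0.902 CPM in controls, overlapping, and at 0.42, 0.453 and 0.346 CPM in late cKO hearts against 0.681 to 2.12 CPM in late controls (contrast −3.51 ± 0.79). Fos (−2.16), Egr3 (−1.62) and Junb (−1.12) had called contrasts in the same direction, and the Fos call was lost with limma voom and without early cKO replicate 2 and late cKO replicate 3 together (adjusted p up to 0.0722).

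Adipocyte markers gave the median contrast furthest from 0 of any list, −5.17, from transcripts at low levels that varied widely between hearts of 1 group. Summed over Adipoq, Plin1, Cidec, Cfd and Car3, fat transcripts were at 0.474 to 3.55 CPM in early controls and 3.25, 17.5, 27.2 and 19.5 CPM in early cKO hearts. In late controls they were at 1.37, 33.6 and 21.5 CPM, and in late cKO hearts at 6.42, 0.0849 and 0.726 CPM. Thus 3 of 4 early cKO hearts and 2 of 3 late controls were high, and late control replicate 1 lay below late cKO replicate 1. The contrast of each of Adipoq, Plin1, Cidec, Cfd and Car3 was called in all 24 alternative settings (adjusted p up to 0.039). The atrial transcript Bmp10 came from 2 hearts: it was at 164 CPM in early cKO replicate 2 and at 103 CPM in late control replicate 3, and between 0 and 0.761 CPM in the other 12. Without late control replicate 3 the Bmp10 contrast lost its call (adjusted p = 0.677).

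**Figure D5:**
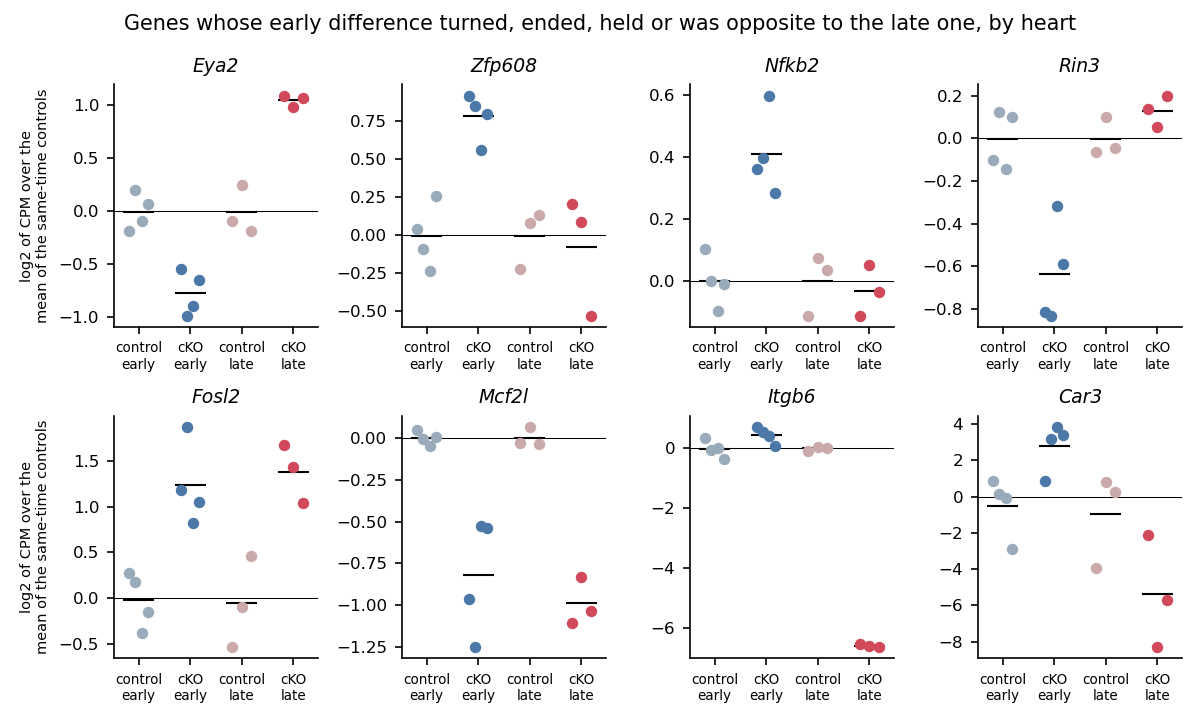
The log2 ratio of CPM to the mean of the same-time controls for each heart, by group, for 8 genes whose early difference reversed (Eya2), was no longer called late (Zfp608, Nfkb2, Rin3), held (Fosl2, Mcf2l) or was opposite to the late one without an early call (Itgb6, Car3); black bars are group means. Eya2 lies below 0 in all early cKO hearts and above it in all late ones, while Car3 scatters widely among controls of both times.

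Among the named genes with the largest contrasts, several had no early call. Upward, beside the amplified Acox2 (6.88), Lcn2, the iron-carrier protein lipocalin-2, was at 0.95 to 2.07 CPM in early cKO hearts against 0.902 to 2.05 CPM in controls and at 272, 286 and 287 CPM in late cKO hearts against 1.21 to 2.54 CPM in late controls (contrast 6.86 ± 0.43). Avil, an actin-binding protein, had 6.32 ± 0.46. Downward, Ces1d, a carboxylesterase, was at 94.4 to 109 CPM in early cKO hearts against 116 to 184 CPM in controls and at 1.05, 0.509 and 0.657 CPM in late cKO hearts against 142 to 238 CPM in late controls (contrast −7.49 ± 0.34). Myh7b, a myosin gene, had −5.91 ± 0.26 and the macrophage lectin Mgl2 −5.64 ± 0.24. Lcn2, Avil, Ces1d, Myh7b and Mgl2 each had no overlap between late cKO and late control hearts. The rule that named the largest contrasts required this, and it held for 70.3% of all genes tested.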

How the data were processed

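Poly-A RNA of whole mouse hearts was sequenced single-end with TruSeq V2, per the labels' protocols. The submitters' processing notes name Trimmomatic 0.36, STAR 2.6.0c and GRCm38; for the counting step no tool is given in the sources used here. The authors deposited raw read counts per gene symbol in 1 table for each time.

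Both tables were joined by symbol and fitted together in edgeR 4.0.16 (R 4.3.3): TMM scaling, filterByExpr by group (minimum count 10, minimum total 15), 1 mean per group, the quasi-likelihood F test and Benjamini-Hochberg adjustment over all genes tested, called at an adjusted p under 0.05. SE is the log2 value divided by the square root of F, and intervals are 95%. DESeq2 1.42.0 and limma 3.58.1 voom served as alternatives. Of 53735 symbols, 14555 passed the filter. Depth was 15657298 to 19466469 counts early and 29989076 to 35750964 late. The fit was tested on simulated data with 200 changed genes among 14234 tested. It called 19% of the 1.5-fold contrasts and 95% of the 3-fold ones, so a missing call does not show equal effects. The simulated hearts of a group shared 1 mean, with none set apart. Far fewer genes changed there than the 61.2% called in the data, so these recovery rates may not hold for the data.

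Gene lists and their members were chosen with earlier results of these data known. Genes were named by rule: Fam210a, the 12 largest contrasts each way among genes whose log2 CPM averaged 2 or more and whose late groups did not overlap, up to 8 per class and up to 5 per list by contrast p. The early-called genes were added in full or by example, and further list members were named after their values were seen. Sequences come from RefSeq promoters on GRCm38.p6, matched by symbol for 10018 of the genes tested. Y-linked genes and Xist were left out, and some genes that the rule names are not reported here.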

Additional observations from a re-analysis of the deposited data

Results flagged for a closer look

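The contrast was called for 8903 genes, each a test that the knockout effect differed between about 5 and about 10 weeks. Among the genes called early whose contrast ran against the early direction were Eya2 (contrast 1.81), Rin3 (0.7544), Zfp608 (−0.8243) and Nfkb2 (−0.4475), all in log2 units.

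Of 68 values of groups of 4 hearts tested, 5 had 1 heart set apart from the other 3. The nominal chance rate of about 1 in 20 does not carry over, since the genes were picked with these data known. Bmp10 also counts in the summed atrial markers. Summed atrial markers were at 1660 CPM in early cKO replicate 2, with the next heart at 262 CPM, and Bmp10 was at 164 CPM in the same heart and at 0 in the other 3. Maoa was at 14.4 CPM in early cKO replicate 3, with the next at 8.45 CPM. In early controls, Plin1 was at 0.241 CPM in replicate 1 (next 0.0645 CPM) and Bmp10 at 0.0592 CPM in replicate 4 (next 0), both within a few reads.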

How the results depend on the processing

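The counts of genes with a called contrast stayed within 1.5 times of 4342 higher and 4561 lower under every alternative that gave one, between 3811 and 4876 and between 4157 and 5032, and so did the late counts and both classes that appeared late. Without each single heart they ran from 4005 to 4554 and from 4302 to 4849. Thinning the late counts to the early depth gave 4203 and 4377. Library totals without TMM shifted the median contrast of all genes by −0.091. Over 290 gene contrasts and their alternatives, 6866 kept direction and side of the threshold, 46 lost the call, 40 gained it and 0 reversed; Zfp608, Nfkbia, Cyb5r2, Fam227b, Arntl, Bmp10, Fos, Kars and Myh6 were among those that lost it in some setting.

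The early counts and the classes built on them depended on the processing, and the cause was not tested. Against 54 higher and 7 lower early, 46 amplified, 10 held, 4 attenuated, 1 reversed and, for opposite tendencies, 68 up and 133 down, the values outside 1.5 times were as follows. DESeq2 gave 95 higher, 22 lower, 81 amplified, 19 held and 9 reversed. Voom with sample weights gave 116, 44, 101, 29 held, 8 attenuated, 17 reversed and opposite tendencies of 217 up and 237 down. No count filter gave 155, 43, 97, 37 held, 22 attenuated and 36 reversed. Library totals gave 1 attenuated, each time fitted alone 13 lower and 4 reversed, and thinned late counts 0 reversed. Counting early cKO replicate 4 as a control gave 16 lower, 6 reversed, 8 attenuated and 111 opposite up. Without early cKO replicate 2 and late cKO replicate 3 there were 6 held and 2 attenuated. Without early cKO replicate 2 and late control replicate 3, an alternative chosen after seeing the data, there were 25 higher, 2 lower, 25 amplified, 2 held, 0 attenuated, 0 reversed and 73 opposite down.

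Without single hearts the ranges were 27 to 72 higher, 2 to 17 lower, 27 to 64 amplified, 2 to 16 held, 0 to 8 attenuated, 0 to 4 reversed, 46 to 112 opposite up and 74 to 159 opposite down. Each early control and early cKO replicates 2 and 3 took the early higher count to between 27 and 34. Late cKO replicate 3 took opposite up to 112 and early cKO replicate 2 took opposite down to 74. The median contrast of cytosolic ribosomal proteins (0.4293 to −0.113 without single hearts) turned to −0.1097 with voom, −0.113 without late cKO replicate 3 and −0.09721 without early cKO replicate 2 and late cKO replicate 3. That of atrial markers (−4.425 to 0.9944 without single hearts) turned to 0.9944 without early cKO replicate 2, 1.446 with late cKO replicate 3 also left out and 2.417 with late control replicate 3 also left out.

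The replicate numbers did not pair the hearts: same-numbered deviations correlated at −0.105, −0.0517, −0.0271 and −0.037 early and at −0.28, −0.0523 and −0.436 late. With a replicate block there were 20 higher and 3 lower early, 19 amplified, 4 held, 0 attenuated, 0 reversed, 32 opposite up and 82 opposite down. The search on 1 strand lowered motif shares, as given above. The contrasts of Slc7a11, Vmn2r3 and Soat2, each with a group at 3 reads or fewer, gained a call in 8, 3 and 2 of 24 settings.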

Other observations

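A1cf, chosen after its values were seen, moved with Esr1 across the late hearts. It was between 2.96 and 4.72 CPM in the 8 early hearts, at 3.88, 4.13 and 4.5 CPM in late controls, and at 0.15, 0.0849 and 0 CPM in late cKO hearts (contrast −5.76 ± 0.43). Some transcripts nearly absent from controls were counted often in late cKO hearts. The vomeronasal receptor gene Vmn2r3 had 7337 reads over the 3 late cKO hearts and 1 read over the late controls. It was already called early (159 reads against 1) and is among the held genes. Akr1b7, Cyb5r2 and Fam227b, chosen among the largest contrasts, had 3090, 2710 and 1995 reads late against 5, 3 and 1. The contrast call was lost in 2 of 24 settings for Cyb5r2 and in 4 for Fam227b.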
